A study of Homo sapiens with 26 samples.

Results

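The genes described here are 9 transcription factors of the ETS family: ETV6, ELK3, SPI1, SPIB, ETS1, ETS2, FLI1, ELF1 and GABPA. They were chosen by name from the 58592 genes to which the deposited transcript estimates could be assigned, and all 9 had enough reads to be tested in every comparison. The values come from poly(A) RNA sequencing of OCI-Ly7 and SUDHL4, established human lines of germinal centre B cell type diffuse large B cell lymphoma. Every group, controls included, carried a lentivirally delivered dCas9-BFP-KRAB protein under the SFFV promoter, a nuclease-dead Cas9 joined to a blue fluorescent marker and a repressor domain that silences the promoter to which a guide RNA leads it. Cells then received, again by lentivirus, guides against POU2F2 (the octamer-binding factor OCT2), guides against POU2AF1 (its coactivator OCA-B, also called OBF-1) or non-targeting guides (control). After repeat files of the same library were merged, 22 libraries were left. Of these, 18 were from OCI-Ly7 (4 control, 6 with POU2AF1 knocked down, 8 with POU2F2 knocked down) and 4 from SUDHL4 (1, 1 and 2 in the same order). The 2 lines were grown in different media, so line and medium cannot be told apart. The labels say nothing of separate cultures, so the p-values below measure the spread between these libraries, which may be technical.

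ETS factors share a DNA-binding domain that recognises a GGAA core, and they differ in the partners they bind and in whether they activate or repress. ETV6 and ELK3 are mainly known as repressors. ETV6, also called TEL, is needed by blood stem cells and is often rearranged or deleted in leukaemia. ELK3, also called NET, is a ternary complex factor that binds DNA with SRF and turns into an activator when MAP kinases phosphorylate it. SPI1, which encodes PU.1, and its closest relative SPIB bind composite sites with IRF4 or IRF8 and work in overlapping ways in B cells. SPIB has been reported as a direct target of OCA-B in mouse B cells, which makes its level under POU2AF1 knockdown a natural question of the design. On GRCh38, in GENCODE 29, ETV6 lies at chr12:11649854-11895402 on the plus strand and ELK3 further along the same chromosome at chr12:96194382-96269835, also plus. SPI1 (chr11:47354860-47378576, minus), ETS1 (chr11:128458761-128587558, minus) and FLI1 (chr11:128686535-128813267, plus) share chromosome 11. ETS2 (chr21:38805307-38824955, plus) and GABPA (chr21:25734570-25772460, plus) share chromosome 21. SPIB lies at chr19:50418938-50431313 on the plus strand and ELF1 at chr13:40932028-41061440 on the minus strand. Values are summed over all transcripts of each gene.

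The sequences just upstream of the 2 members with the largest increases in the POU2AF1 knockdown, ETV6 and ELK3, are shown because the knockdowns target an octamer-binding factor and its coactivator. They are the 250 bases before the RefSeq start on the plus strand of GRCh38.p14, in lower case with each GGAA or its complement TTCC in capitals.
ETV6, chr12:11649424-11649673: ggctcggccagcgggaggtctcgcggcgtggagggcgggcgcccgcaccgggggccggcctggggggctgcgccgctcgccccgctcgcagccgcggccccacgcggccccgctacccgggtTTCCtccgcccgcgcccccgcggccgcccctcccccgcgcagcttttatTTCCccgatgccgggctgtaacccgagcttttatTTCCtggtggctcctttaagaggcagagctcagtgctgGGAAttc
ELK3, chr12:96194125-96194374: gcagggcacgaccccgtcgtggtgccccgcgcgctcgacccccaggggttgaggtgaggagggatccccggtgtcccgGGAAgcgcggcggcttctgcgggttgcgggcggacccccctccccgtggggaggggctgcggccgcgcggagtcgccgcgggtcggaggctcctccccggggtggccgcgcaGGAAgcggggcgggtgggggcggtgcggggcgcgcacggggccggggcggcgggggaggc
The ETV6 window had 4 matches of the core and was 74.4% G and C. The ELK3 window had 2 and was 82.0% G and C. ELK3 has a second RefSeq window, chr12:96255248-96255497, not printed here, with 6 matches and 57.2% G and C. RefSeq windows of this kind were matched by symbol for 6 of the 9 members, 10 windows in all. Searched on both strands, the octamer ATGCAAAT was in 0 of the 10, against 1.63% of all 35116 windows of that length. The longer ETS site CCGGAAGT was in 1, that of GABPA, against 3.42%. GGAA itself, which is also part of the longer site, was in 8 of the 10, against 92.7%. These counts say which letters stand in these windows and nothing of what binds there.

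The deposited files held between 24959865 and 53155548 reads each. The targeted genes were low where their guides were used. POU2AF1 was 7.98-fold lower in the OCI-Ly7 POU2AF1 knockdown (log2 change -3.00 ± 0.19 SE, edgeR adjusted p = 1.98e-07) and changed by -2.45 ± 0.13 in SUDHL4. POU2F2 was 2.96-fold lower in the OCI-Ly7 POU2F2 knockdown (-1.57 ± 0.24, adjusted p = 0.056), with all 8 libraries below all 4 controls, and changed by -2.71 ± 0.13 in SUDHL4. In the OCI-Ly7 POU2AF1 knockdown, replicate 1 stood apart: 25.8% of its reads were mitochondrial, and the 17 others from OCI-Ly7 had 7.05% to 13.4%. Levels are given in TPM, the authors' estimate of transcript abundance for its length, scaled to the same total in every library. All 8 germinal centre B cell markers reached 1 TPM in every group. None of 8 myeloid markers did, and their summed level was between 0.215 and 1.51 TPM. Of 8 T and NK cell markers, TRAC and CD3E did, while CD3D was at 0 in every SUDHL4 library and at most 0.402 TPM in OCI-Ly7. The summed level of these 8 was 39.9 to 56.6 TPM in OCI-Ly7 control, 19.9 to 50.9 in POU2AF1 knockdown and 14.5 to 78.4 in POU2F2 knockdown. In SUDHL4 it was 6.40 in control, 35.9 in POU2AF1 knockdown and 20.1 to 21.7 in POU2F2 knockdown, and the part of these markers in the results was not tested.

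The levels of the 9 factors in the control cells spanned a wide range. TPM allows for length and so can be compared between genes. In the 4 OCI-Ly7 control libraries ETS1 was the most abundant, at 308 ± 22.1 TPM (mean ± SD, n = 4). SPIB and ELF1 followed at 176 ± 31.7 and 160 ± 9.0 TPM, and their ranges overlapped. SPI1 stood at 77.6 ± 14.3, FLI1 at 48.0 ± 12.6 and GABPA at 26 ± 1.53 TPM, each with a range separate from its neighbours. ETV6 at 9.99 ± 3.79 and ETS2 at 5.42 ± 1.80 TPM overlapped, and ELK3 was lowest at 2.59 ± 0.564 TPM. By mean level ETS1 ranked 368th and ELK3 11584th of the 31233 genes with any reads in these libraries. The single SUDHL4 control library had another order: ELF1 at 123, SPIB at 118, SPI1 at 114, ETS1 at 78.2, FLI1 at 51.8, GABPA at 23.0, ETS2 at 19.6, ELK3 at 4.48 and ETV6 at 0.141 TPM. The ETV6 value there rests on 34 reads.

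**Figure D1:**
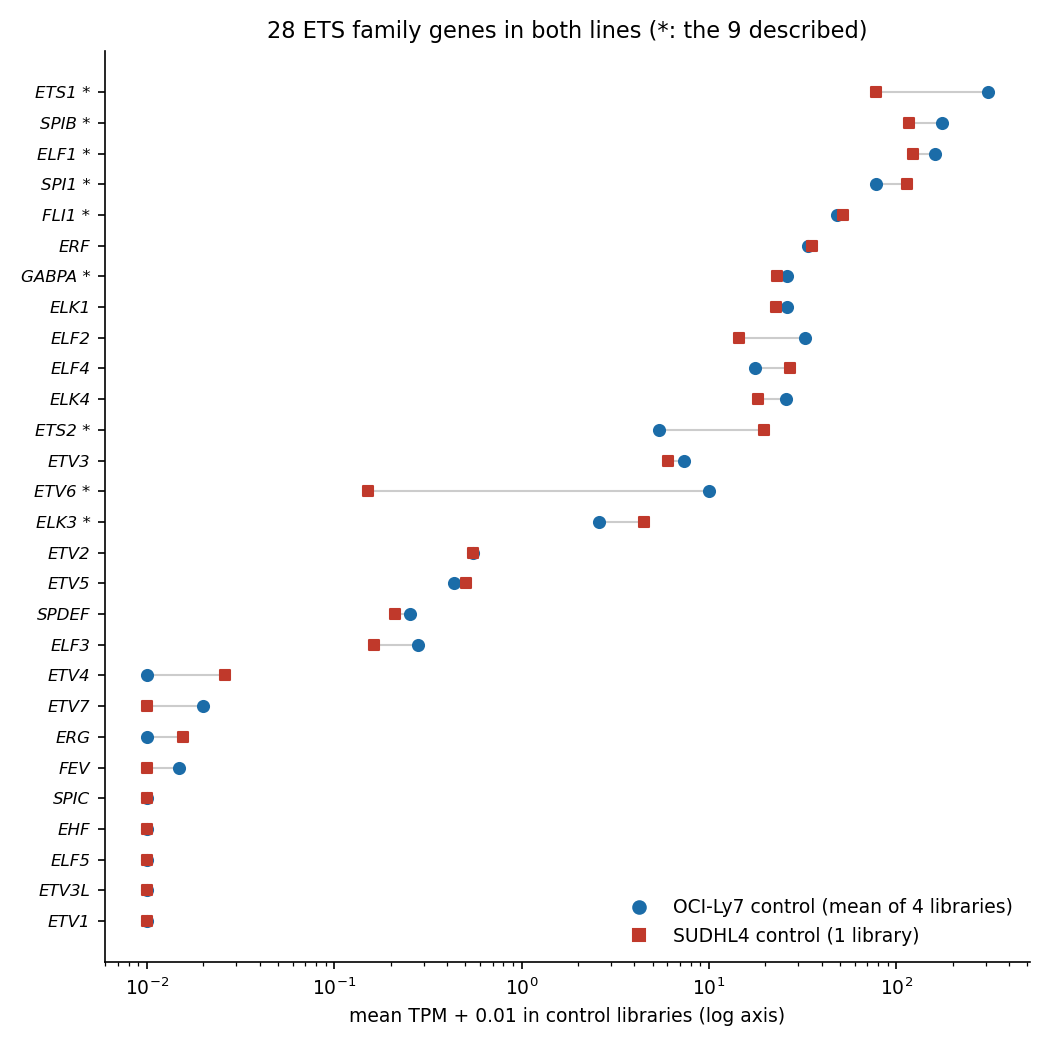
TPM + 0.01 on a log axis for 28 ETS family genes in the control libraries, circles for the mean of 4 OCI-Ly7 libraries and squares for the 1 SUDHL4 library, with the 9 factors described here marked by an asterisk. ETS1 leads in OCI-Ly7 and ELF1 in SUDHL4, and the gap is widest for ETV6, at 9.99 and 0.141 TPM.

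In OCI-Ly7, knockdown of POU2AF1 came with higher ETV6, and ETV6 was the only one of the 9 factors to pass the test. A gene is called when its edgeR p-value, adjusted over all genes tested, is below 0.05. In this comparison 0.888% of the 16000 genes tested were called, 45 higher and 97 lower, and of the 9 members 1 was called higher, where 0.281% of all genes were, and 0 lower. The median log2 change was 0.07 over the members and -0.00 over all genes. As in any bulk sample, a change in RNA per cell and a change in the share of cells that hold the RNA cannot be told apart.

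ETV6 read 6.92, 6.51, 13.2 and 13.4 TPM in control replicates 1, 7, 8 and 9. In the 6 POU2AF1 knockdown libraries it read 17.6 at the lowest, 24.4 at the median and 28.5 at the highest. The groups did not overlap: all 6 knockdown libraries were above all 4 controls, on the TPM scale and in reads scaled to library size (CPM). The same was true in CPM of 1.13% of all genes tested. The fitted change was 2.45-fold (log2 change 1.29 ± 0.24 SE, adjusted p = 0.00981). The controls themselves differed: replicates 1 and 7 were near 7 TPM and replicates 8 and 9 near 13 TPM.

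The libraries came in 2 labelled batches, and those of batch 2, except POU2F2 knockdown replicate 3, also carried series marks in their descriptions. That library and POU2AF1 knockdown replicate 3 were labelled 48 h, as was the file of control replicate 3, a repeat of control replicate 1. The other files carried no time, and its part in the results was not tested. Control replicate 1 was the only OCI-Ly7 control of batch 1, with POU2AF1 knockdown replicates 1 to 4. Every SUDHL4 library was labelled batch 1. Set against the control of its own batch or series, ETV6 was higher in 6 of 6 POU2AF1 knockdown libraries, by 1.93-fold to 3.47-fold in CPM. The same count held for 8.91% of all genes tested. Fitted with the series as a block, ETV6 had a log2 change of 1.43 ± 0.12 and an adjusted p of 7.02e-06, with 5.59% of genes called. Within batch 1 alone the change was 1.76 (adjusted p = 0.0181). Within batch 2 alone, with 2 knockdown libraries, it was 1.03 (adjusted p = 0.827), and without control replicate 1 it was 1.03 (adjusted p = 0.433), so the call rested on that library when batch was the only term. With the series block and without control replicate 1 the change was 1.21 (adjusted p = 0.00021). ETV6's adjusted p ranged from 6.78e-06 to 0.827 over the 14 other settings. It ranged from 2.26e-06 to 0.433 over 20 fits that each left out a library, fits with the series block included. How far POU2AF1 itself fell differed with batch. It averaged 32.1 CPM in the 4 knockdown libraries of batch 1, against 446 CPM in the control. In the 2 of batch 2 it averaged 85.3 CPM, against 457 CPM in the controls. The part of this in the changes of the 9 factors was not tested.

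ELK3, the other known repressor, differed by about as much but varied more between libraries. It read 3.25, 2.85, 2.04 and 2.20 TPM in the controls. In the knockdown libraries it read 2.87, 19.9, 12.9, 12.7, 5.96 and 3.20 TPM in replicates 1 to 6. In TPM replicates 2, 3 and 4 were far above every control, and replicates 1 and 6 lay within the control range. In CPM 5 of 6 were above every control, and replicate 6 was not. The log2 change was 1.28 ± 0.36 and did not pass the test (adjusted p = 0.134). Against the control of its own batch or series ELK3 was higher in 6 of 6 libraries in CPM, by 1.47-fold to 5.09-fold, though in TPM replicate 1 was below the control of its batch (2.87 against 3.25). With the series as a block it passed (log2 change 1.27, adjusted p = 0.041). It also passed when the library with the high mitochondrial share, POU2AF1 knockdown replicate 1, was left out (1.36, adjusted p = 0.0415). With the series block and without control replicate 1 it was 0.84 (adjusted p = 0.575). Over the 14 other settings ELK3's adjusted p ran from 0.00306 to 1.

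**Figure D2:**
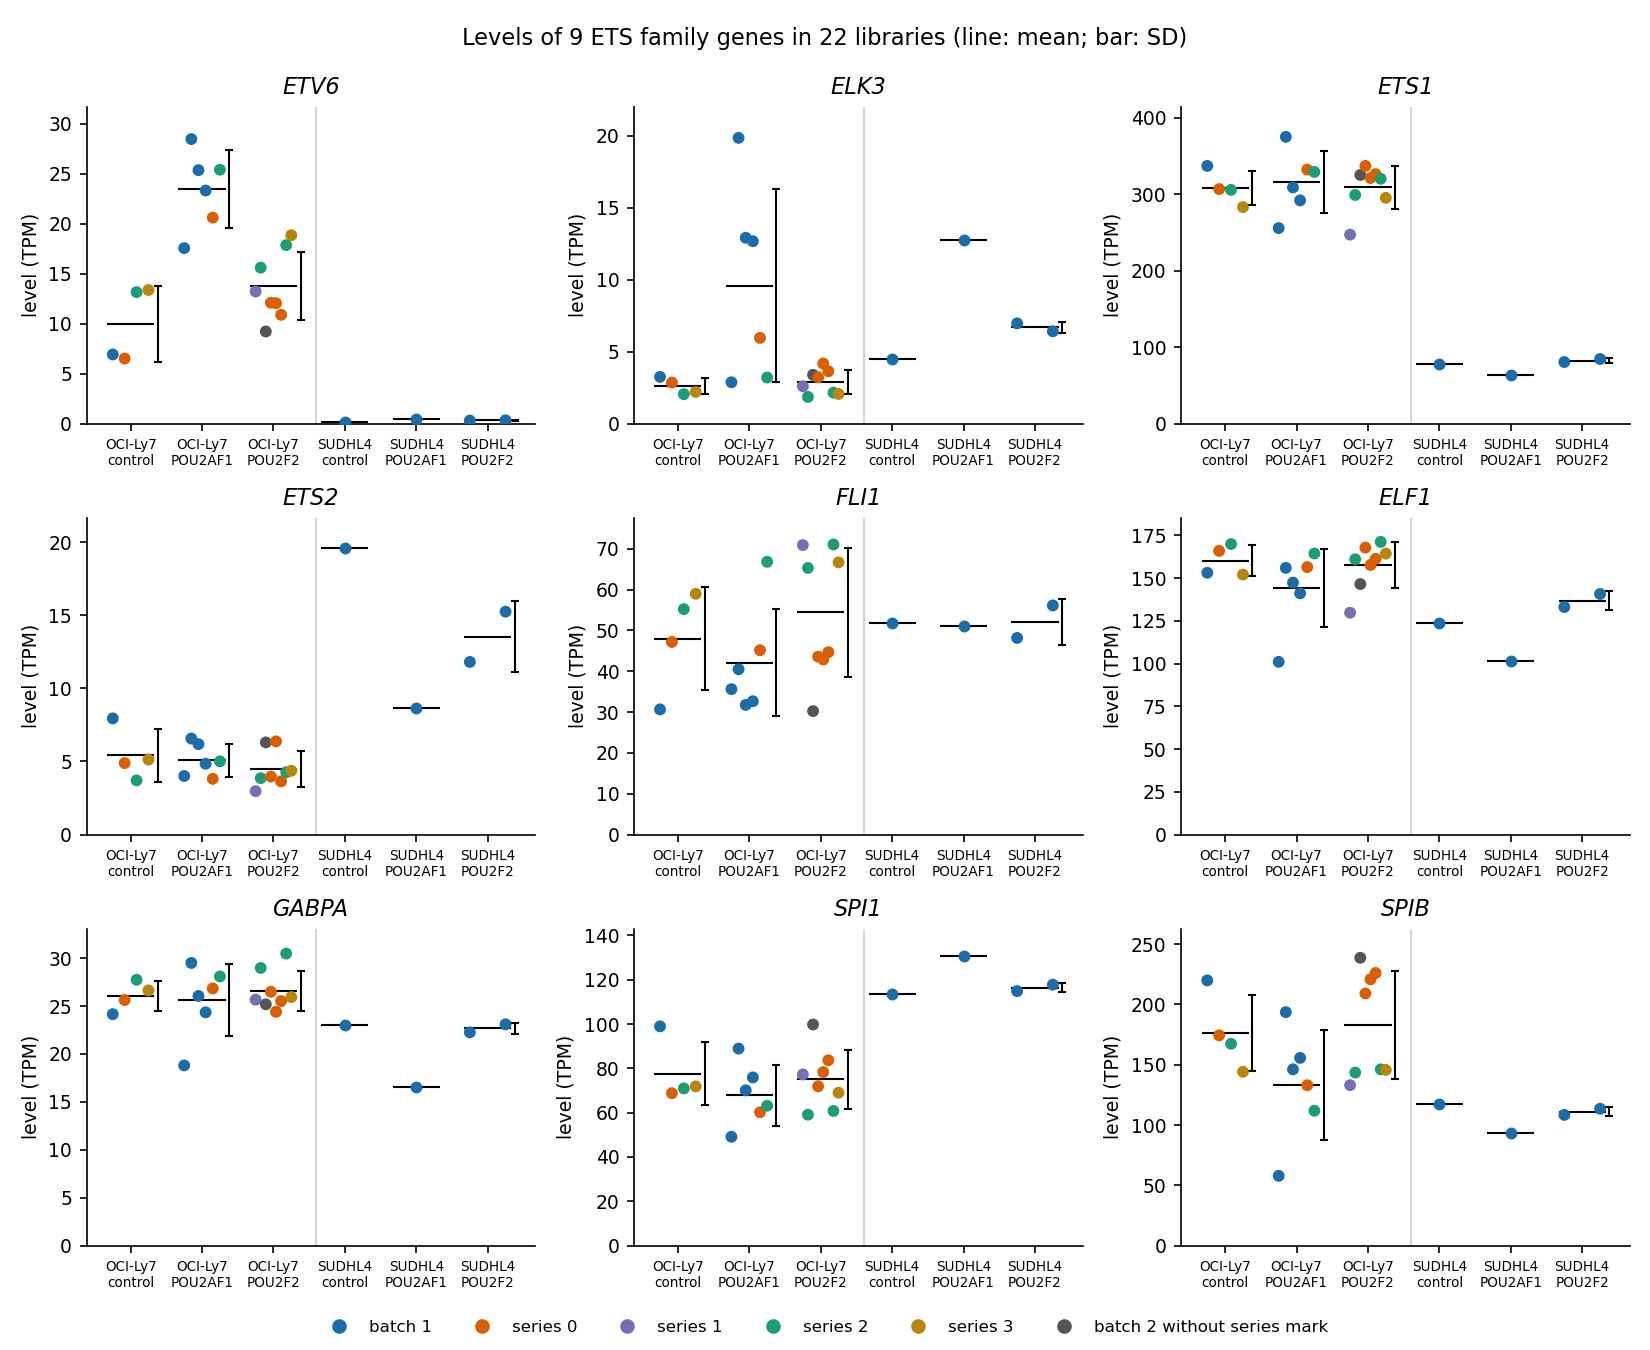
TPM of each of the 9 factors in the 22 libraries, 1 point per library coloured by batch or series, with a line at the group mean and a bar for the SD. The 6 OCI-Ly7 POU2AF1 knockdown points of ETV6, 17.6 to 28.5 TPM, lie above its 4 control points, and those of ELK3 spread from 2.87 to 19.9 TPM.

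SPI1 and SPIB, the PU.1 pair, were not called. SPI1 read 99.0, 68.8, 70.9 and 71.9 TPM in the controls and 49.1, 66.6 and 88.9 TPM at the lowest, median and highest POU2AF1 knockdown library. The ranges overlapped, and the log2 change was -0.36 ± 0.21 (adjusted p = 1.00). SPIB read 220, 174, 167 and 144 TPM in the controls and 57.8, 139.6 and 194 TPM at the lowest, median and highest knockdown library. Its change was -0.39 ± 0.25 (adjusted p = 1.00). Both were below the control of their own batch or series in 6 of 6 knockdown libraries, SPI1 at 0.689 to 0.897 times and SPIB at 0.403 to 0.861 times its CPM. Of all genes tested 13.2% were below in 6 of 6. In TPM the lowest SPIB and SPI1 values both came from POU2AF1 knockdown replicate 1. In CPM SPIB was again lowest there, but SPI1 was lowest in replicate 5 (36.8 CPM, against 65.1 in replicate 1). With the series block and without that library SPIB's change was -0.38 and passed the test (adjusted p = 0.0117). Over 20 fits that each left out a library, that fit with the series block included, SPIB's adjusted p ran from 0.0117 to 1.

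ETS1, known for restraining plasma cell formation, was level between the groups. Its control libraries read 337, 306, 305 and 283 TPM and the knockdown libraries 255 to 375 TPM with a median of 319. The log2 change of ETS1 was 0.07 ± 0.11 (adjusted p = 1.00). Its relative ETS2 was scarce, at 7.94, 4.89, 3.70 and 5.13 TPM in the controls and 3.81 to 6.56 TPM in the knockdown libraries, with overlapping ranges. Its change was -0.33 ± 0.33 (adjusted p = 1.00). FLI1, which lies next to ETS1 on chromosome 11 and is known from platelet formation and from fusion genes in Ewing sarcoma, read 30.7, 47.2, 55.2 and 59.0 TPM in the controls. Its knockdown libraries spanned 31.8 to 66.8 TPM, and its change was 0.10 ± 0.21 (adjusted p = 1.00).

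ELF1, a lymphoid activator, read 153, 166, 170 and 152 TPM in the controls and 101 to 164 TPM in the knockdown libraries (-0.05 ± 0.10, adjusted p = 1.00). GABPA is the DNA-binding subunit of GABP, a factor at the promoters of nuclear genes for mitochondrial proteins. It read 24.2, 25.6, 27.7 and 26.6 TPM in the controls and 18.8 to 29.5 TPM in the knockdown libraries (0.07 ± 0.09, adjusted p = 1.00). In TPM the lowest values of ELF1, ETS1 and GABPA in this group were those of replicate 1. In CPM they were not: GABPA was highest there, at 64.2 CPM, and the lowest ETS1 (788 CPM) and ELF1 (261 CPM) were in replicate 4.

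**Figure D3:**
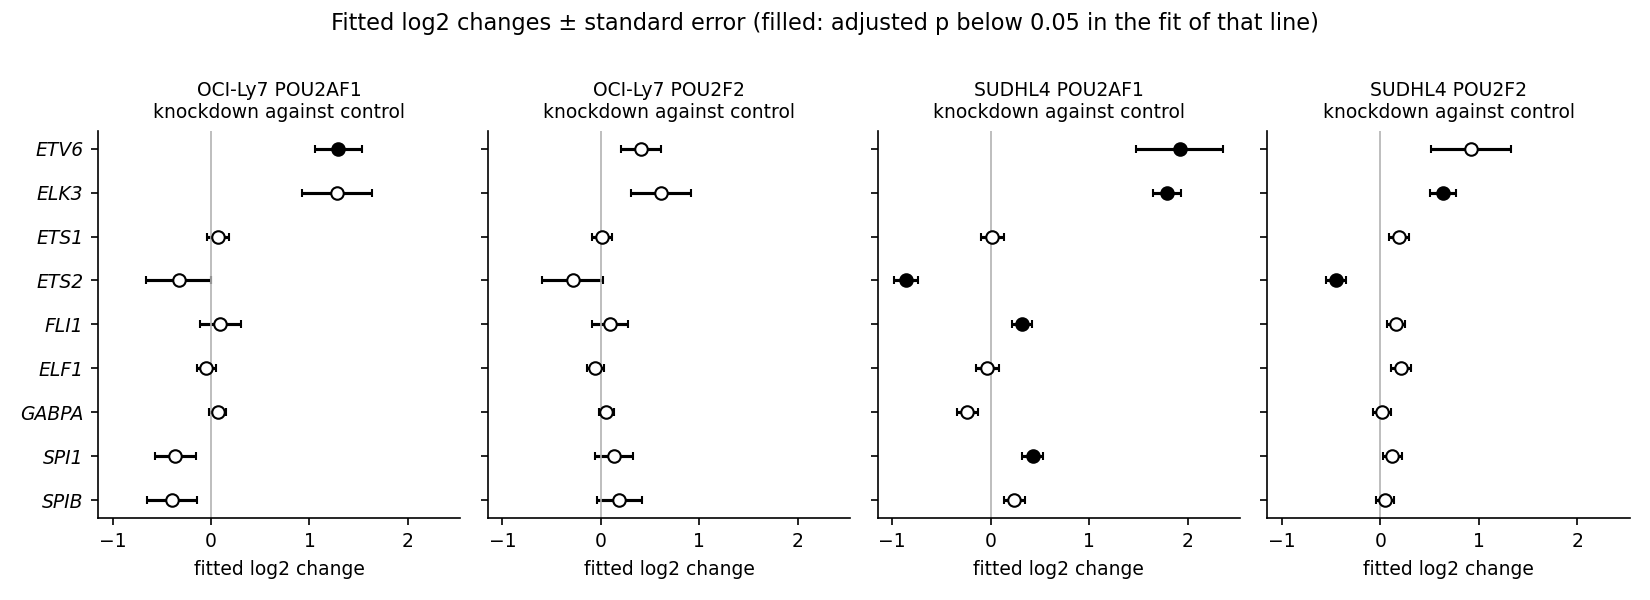
Fitted log2 change with its SE for the 9 factors in each knockdown against control, with called values as filled points. In OCI-Ly7 ETV6 at 1.29 is the only filled point, and the SUDHL4 POU2AF1 knockdown has 5.

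With POU2F2 knocked down in OCI-Ly7 no factor was called. By edgeR 0% of the 16000 genes tested were called, and 283 had an unadjusted p below 0.05. Of the 9 members 0 were called and 0 had an unadjusted p below 0.05. DESeq2 called 5 genes and no member. This comparison uses the same 4 control libraries as the one above. ETV6 read 9.22, 12.7 and 18.9 TPM at the lowest, median and highest of the 8 knockdown libraries. These overlapped the controls, and the log2 change was 0.41 ± 0.20 (adjusted p = 1.00). ELK3 read 1.85, 2.90 and 4.17 TPM at the lowest, median and highest, with a change of 0.61 ± 0.30 (adjusted p = 1.00).

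Of the 8 POU2F2 knockdown libraries 6 had a control in their own series. ETV6 was above it in 6 of 6, by 1.25-fold to 1.84-fold, and ELK3 in 6 of 6, by 1.08-fold to 1.56-fold. ETS1 and FLI1 were also above it in 6 of 6, by at most 1.08-fold and 1.20-fold. Of all genes tested 8.34% were above in 6 of 6. With the series as a block ETV6 was 0.60 higher and passed (adjusted p = 0.0461, with 0.0813% of genes called). That call was lost when replicate 3, which carries no series mark and is labelled 48 h, was placed in batch 1 (adjusted p = 0.221). The remaining members changed by between -0.29 ± 0.31 (ETS2) and 0.19 ± 0.23 (SPIB), with overlapping ranges. SPIB spanned 133 to 239 TPM, SPI1 59.1 to 99.8 TPM and ETS1 247 to 337 TPM.

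**Figure D4:**
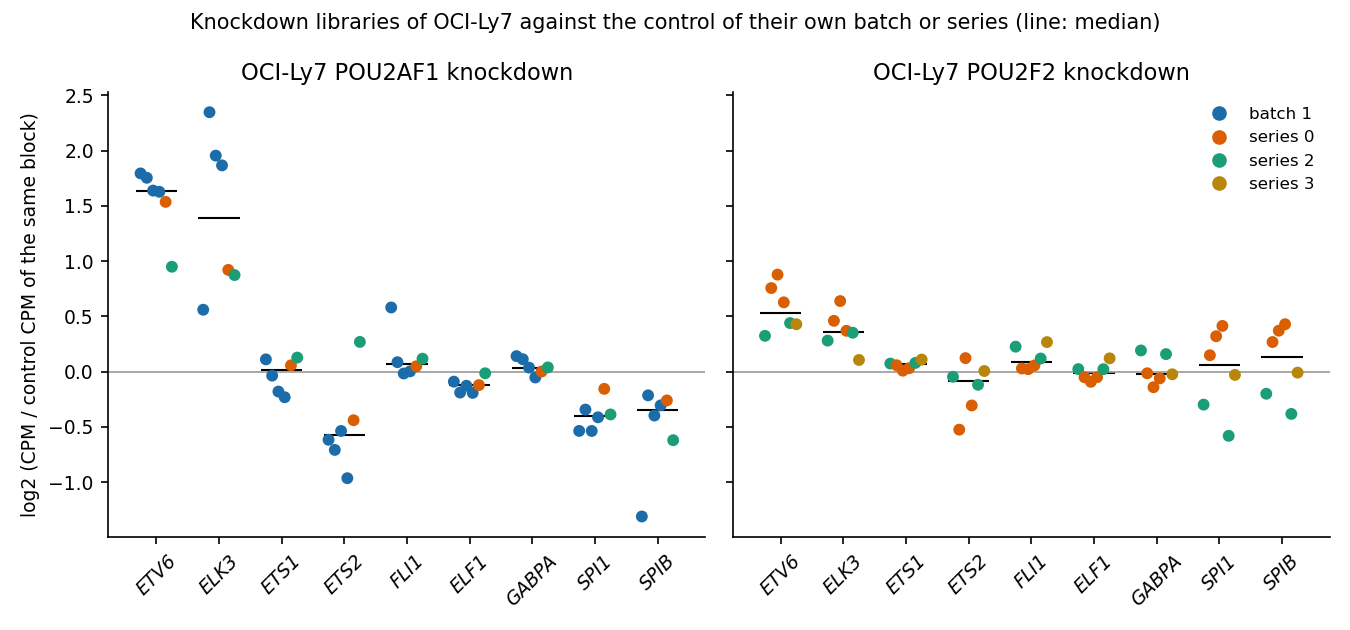
Log2 ratio of CPM in each OCI-Ly7 knockdown library to the control of its own batch or series, for the 9 factors, with a line at the median. In the POU2AF1 knockdown all 6 points of ETV6 and of ELK3 lie above 0, and all 6 points of SPI1, SPIB and ELF1 lie below it.

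The 2 knockdowns were also set against each other. In OCI-Ly7 edgeR called 0.162% of genes. The controls help to set the batch term of this fit, and without control replicate 1 the genes called fell from 26 to 3. It called 0 of the 9 members, of which 3 had an unadjusted p below 0.05, and DESeq2 called 1. ETV6 was lower in POU2F2 than in POU2AF1 knockdown by a log2 difference of -0.89 ± 0.23 (adjusted p = 0.251). In CPM all 8 POU2F2 knockdown libraries were below all 6 POU2AF1 knockdown libraries, which held for 0.237% of all genes tested. In TPM the groups overlapped, with ETV6 at 18.9 in POU2F2 knockdown replicate 8 and 17.6 in POU2AF1 knockdown replicate 1. With the series as a block ETV6's difference was -0.82 (adjusted p = 0.0018, with 1.26% of genes called). Over the 13 other settings its adjusted p ran from 0.00019 to 1.00. SPI1 and SPIB were the other 2 with an unadjusted p below 0.05, at 0.50 ± 0.22 and 0.58 ± 0.26, each with an adjusted p of 1.00. The sign of SPI1 depended on the batch term, without which its difference was -0.18.

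In SUDHL4, POU2AF1 knockdown came with higher ETV6, ELK3, SPI1 and FLI1 and lower ETS2. The test there rests on 1 control library, 1 POU2AF1 knockdown library and the spread between 2 POU2F2 knockdown libraries, and it called 36.8% of the 16972 genes tested, 48.9% of them higher. The 5 calls among 9 members are to be read against that share. ELK3 went from 4.48 TPM (610 reads) to 12.8 TPM (2287 reads), a log2 change of 1.79 ± 0.14 (adjusted p = 9.33e-12). ETV6 went from 0.141 TPM (34 reads) to 0.481 TPM (140 reads), 1.92 ± 0.44 (adjusted p = 0.000739). ETS2 went from 19.6 to 8.69 TPM, -0.86 ± 0.12 (adjusted p = 4.46e-07). TRAC, a T cell marker, read 5.24 and 33.0 TPM in these 2 libraries, and its part was not tested.

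SPI1 read 114 and then 131 TPM (0.43 ± 0.11, adjusted p = 0.00195), and FLI1 read 51.8 and then 51.2 TPM (0.32 ± 0.10, adjusted p = 0.0158). SPIB at 0.24, GABPA at -0.24, ETS1 at 0.02 and ELF1 at -0.03 were not called. SPIB read 118 and then 93.5 TPM, and limma on TPM gave it -0.33. The choice of scale matters here, because the median log2 ratio of all genes was -0.32 in TPM and -0.01 in scaled CPM. A limma fit to log2(TPM + 1) called ELK3 (1.33, adjusted p = 0.000588) and ETS2 (-1.09, adjusted p = 0.0011) but not SPI1, gave FLI1 -0.018, and had 22.1% of all its calls higher. ETV6 was too scarce for that fit. A fit of all 22 libraries, which takes its spread from both lines, called 1.66% of genes and 0 of the 9 members, of which 2 had an unadjusted p below 0.05: ETV6 at 1.90 ± 0.51 (adjusted p = 0.0671) and ELK3 at 1.77 ± 0.64 (adjusted p = 0.21). Adjusted p in that fit was 0.695 for ETS2, 0.817 for SPI1 and 0.886 for FLI1.

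POU2F2 knockdown in SUDHL4 called 7.35% of genes and 2 of the 9 members. ELK3 read 6.97 and 6.41 TPM, against 4.48 in the control (0.64 ± 0.13, adjusted p = 0.00107). ETS2 read 11.8 and 15.2 TPM, against 19.6 (-0.45 ± 0.10, adjusted p = 0.00306). ETV6 read 0.299 and 0.331 TPM from 62 and 54 reads (0.92 ± 0.40, adjusted p = 0.193). In the fit of all libraries, which called 0.0952% of genes, 0 members were called and 0 had an unadjusted p below 0.05. Both knockdowns share the control library. Set directly against POU2AF1 knockdown, POU2F2 knockdown called 26.2% of genes, 52.6% of them higher (76.2% with limma on TPM), and 5 members. ELK3 (-1.16 ± 0.11), ETV6 (-1.0 ± 0.35) and SPI1 (-0.30 ± 0.09) were lower, and ETS2 (0.41 ± 0.11) and GABPA (0.26 ± 0.09) higher. The fit of all libraries called 0.196% of genes there and 0 members, of which 2 had an unadjusted p below 0.05.

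ETV6, ETS1 and ETS2 differed between the lines themselves. The control libraries were compared in a fit of all 22 libraries, which called 23.5% of 18917 genes and 3 of the 9 members. ETV6 was 53.8-fold higher in OCI-Ly7 (log2 difference 5.75 ± 0.54, adjusted p = 1.78e-07). ETS1 was 3.57-fold higher (1.83 ± 0.21, adjusted p = 2.64e-06), and ETS2 was 3.30-fold lower (-1.72 ± 0.52, adjusted p = 0.0202). FLI1 (-0.72 ± 0.34) had an adjusted p of 0.141. SPI1, SPIB, ELF1, ELK3 and GABPA differed by between -0.43 ± 0.35 and 0.64 ± 0.45 and were not called. SUDHL4 gives this comparison 1 control library, of batch 1. The fit had batch as a term, and only OCI-Ly7 had libraries of both batches. ETS2 read 50.5 CPM in the SUDHL4 control and 18.6 CPM in OCI-Ly7 control replicate 1, also of batch 1. In OCI-Ly7 control replicates 7, 8 and 9, of batch 2, it read 8.80 to 10.1 CPM.

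Whether the lines responded differently was tested with the difference of their changes. For POU2AF1 knockdown 0.798% of genes and 0 of the 9 members were called, and for POU2F2 knockdown 0.0106% and 0. In both, 0 members had an unadjusted p below 0.05. DESeq2 also called no member in either. The POU2AF1 response of ETV6 in OCI-Ly7 minus that in SUDHL4 was -0.62 ± 0.55, that of ELK3 -0.50 ± 0.71 and that of SPI1 -0.78 ± 0.46. These errors leave room for differences of the size of the changes themselves.

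Salmon assigns reads to transcripts, and the shares of each factor's TPM show which form was present. ETV6 was almost wholly ETV6-202, a protein-coding transcript of 6144 bases, with 92.4% ± 3.62 of its TPM in OCI-Ly7 control and 88.2% ± 4.02 in POU2AF1 knockdown. Its log2 change in that comparison was 1.30 ± 0.24, close to the gene's, with an adjusted p of 0.0688. Over all transcripts tested 0.0661% were called in this comparison. Of the members' transcripts 0 were called and 7 of 35 tested had an unadjusted p below 0.05. ELK3-201 carried 79.4% ± 6.31 of ELK3 in control and changed by 1.27 (adjusted p = 0.637).

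SPIB was split among several forms. SPIB-204, a protein-coding model of 391 bases that ends at chr19:50423027, well before the end of the gene, held 20.3% ± 1.33 of SPIB in the 4 OCI-Ly7 controls (19.2% to 22.2%). In the 6 POU2AF1 knockdown libraries it held 8.19% ± 3.73 (2.37% to 13.3%). In TPM it spanned 29 to 43.2 in the controls and 1.37 to 14.9 in the knockdown, with no overlap, which held for 1.26% of 46453 transcripts of mean TPM of at least 1. Its log2 change was -1.68 ± 0.47 (adjusted p = 0.63). In POU2F2 knockdown it held 17.1% ± 4.44. The SUDHL4 libraries gave 9.48% in control, 3.80% in POU2AF1 knockdown and 12.7% in POU2F2 knockdown. SPIB-204 was singled out after its values were seen. The full-length SPIB-201 held 44.8% ± 3.26 and 46.6% ± 2.73 in OCI-Ly7 control and POU2AF1 knockdown.

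**Figure D5:**
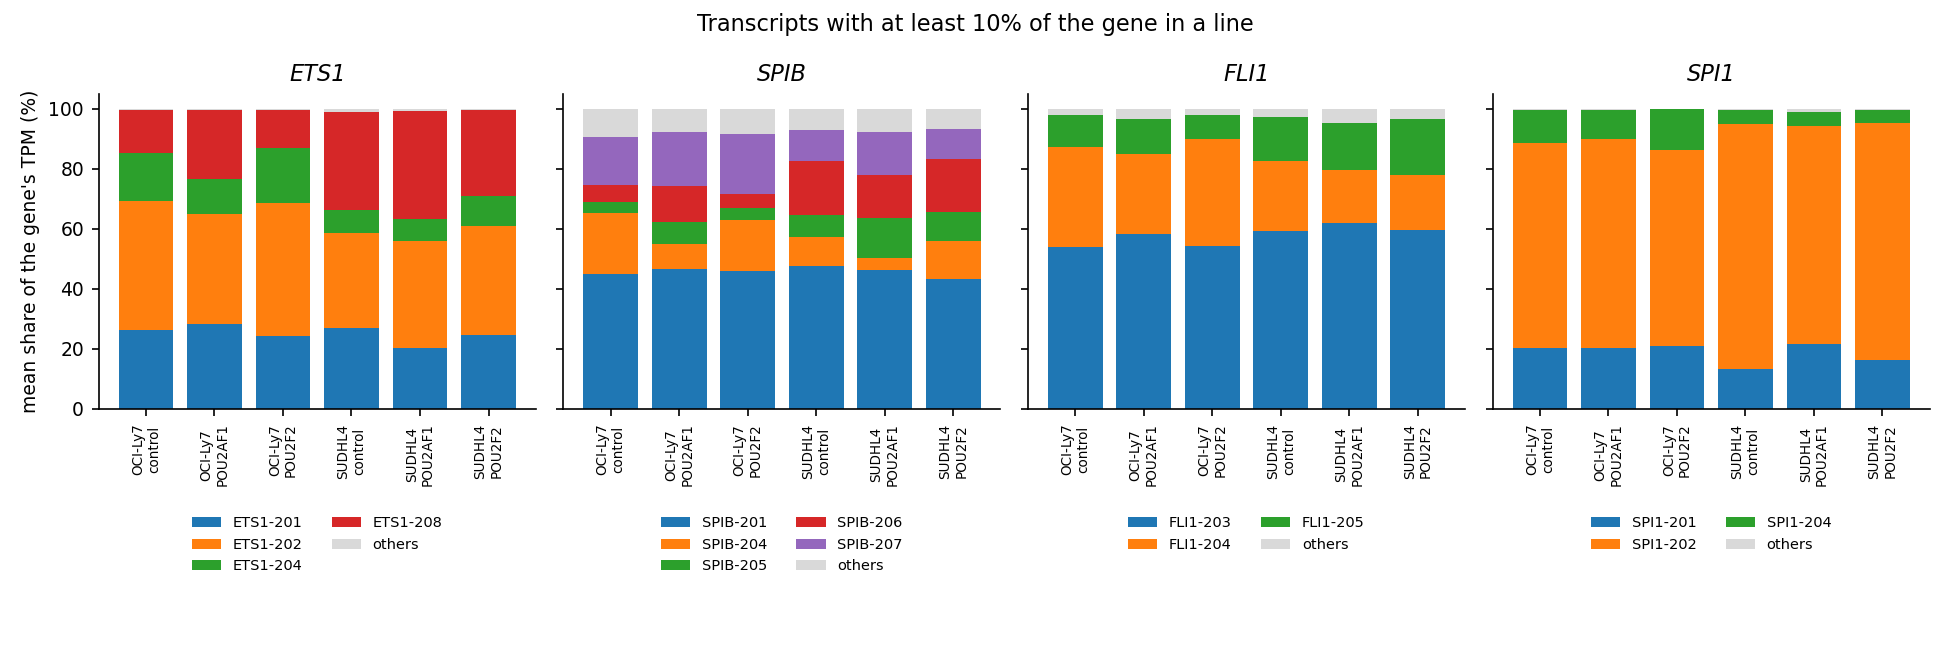
Mean share, in percent, of the TPM of ETS1, SPIB, FLI1 and SPI1 held by each transcript with at least 10% of its gene in a line, stacked for each of the 6 groups. SPIB-204 holds 20.3% in OCI-Ly7 control and 8.19% in POU2AF1 knockdown, and FLI1-203 holds more than any other FLI1 transcript in every group.

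FLI1-203, a model annotated as a target of nonsense-mediated decay, held 54.0% ± 4.25 of FLI1 in OCI-Ly7 control and 59.1% in SUDHL4 control. The FLI1 level thus includes much of a transcript that the annotation marks for decay. ETS1-202, the form from the upstream start of the gene, held 43.0% ± 8.06 of ETS1 in OCI-Ly7 control, 36.4% ± 7.02 in POU2AF1 knockdown and 44.6% ± 4.67 in POU2F2 knockdown, with overlapping ranges. It held 31.8% in SUDHL4 control. The share of all transcripts from that start went with batch: in OCI-Ly7 it was 30.1% to 35.0% in the 5 libraries of batch 1, where control replicate 1 had 32.1%, and 43.1% to 51.2% in the batch 2 libraries other than POU2F2 knockdown replicate 3, which had 33.5%. Of the 6 POU2AF1 knockdown libraries 4 are of batch 1, and its part in their lower mean share was not tested. SPI1-202 held 68.1% ± 6.43 of SPI1 in OCI-Ly7 control and 81.4% in SUDHL4 control. In POU2F2 knockdown of OCI-Ly7 0.00288% of transcripts were called and 0 of the members' (3 with an unadjusted p below 0.05). Both SUDHL4 transcript comparisons called 0%, with 9 and 4 of the members' transcripts at an unadjusted p below 0.05. Reads that fit several transcripts are split by estimation, and that uncertainty is not in these tests.

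Few other members of the ETS family were abundant. Of 19 further ETS genes 9 were tested in OCI-Ly7 and 10 in SUDHL4. ERF, ELF2, ELK1, ELK4, ELF4 and ETV3 were present, with mean control levels in OCI-Ly7 of 33.8, 32.7, 26.1, 25.9, 17.6 and 7.35 TPM. The other 13 had mean control levels below 1 TPM. None was called in either OCI-Ly7 knockdown. The largest absolute changes in POU2AF1 knockdown, all with an adjusted p of 1.00, were in ETV5 (-0.63 ± 0.81), ETV2 (0.40 ± 0.52) and ELF4 (-0.27 ± 0.15). In the SUDHL4 POU2AF1 knockdown ERF, a repressor related to ETV3, fell by 0.37 ± 0.11 on the log2 scale (adjusted p = 0.0064). It was 1 of 10 called, where 36.8% of all genes were, and the fit of all libraries called 0 of 10. In POU2F2 knockdown 0 of 10 were called. Median changes in the 4 comparisons with control were 0.01, 0.13, -0.00 and 0.04. Between the control lines, with 1 SUDHL4 library, 1 of 10 was called higher in OCI-Ly7, ELF2 (1.07 ± 0.20), and 1 lower, ELF4 (-0.80 ± 0.24). Of all genes 23.5% were called there.

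Among 18 known partners and cofactors of ETS factors, 1 was called lower in OCI-Ly7 POU2AF1 knockdown, IRF8, and 1 was called higher. Of all genes tested 0.888% were called in that comparison, and 0.281% were higher. IRF8, which binds composite sites with PU.1 and SPI-B, fell by 1.22 ± 0.14 on the log2 scale (adjusted p = 0.000151), from a mean of 124 to 52.1 TPM. The median of the 18 was 0.05. None was called in POU2F2 knockdown, where IRF8 changed by -0.24 ± 0.13 and the median was -0.00. IRF8 was higher in POU2F2 than in POU2AF1 knockdown (0.98 ± 0.14, adjusted p = 0.00594).

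In SUDHL4 POU2AF1 knockdown, where 36.8% of all genes were called and 18% were higher, 5 of the 18 were higher and 4 lower, with a median of -0.03. PAX5, which keeps B cell identity and recruits ETS1 to DNA, rose by 1.72 ± 0.14, EBF1 by 0.82 ± 0.11, GABPB2 by 0.45 ± 0.16, IRF8 by 0.43 ± 0.11 and SRF by 0.29 ± 0.11. Among the lower were IRF4 (-1.83 ± 0.53), EP300 (-0.29 ± 0.11) and SIN3A (-0.28 ± 0.10), and IRF4 was at 0.441 TPM even in the control. In the fit of all libraries PAX5 was the only one called (adjusted p = 0.0068). In SUDHL4 POU2F2 knockdown PAX5 (0.74 ± 0.12) and IRF8 (0.55 ± 0.10) were higher, IRF4 (-1.82 ± 0.44) was lower and the median was 0.02. Of all genes tested 7.35% were called there. Between the control lines IRF4 differed most, 6.65 ± 0.61 higher in OCI-Ly7.

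A list of 16 B cell genes with known PU.1 or SPI-B sites had most of its calls in SUDHL4. Like the other lists here, it was chosen with earlier results of these data known, so its counts cannot test for an excess over all genes. In OCI-Ly7 POU2AF1 knockdown IGHM, the heavy chain of IgM, fell by 0.90 ± 0.14 on the log2 scale (edgeR adjusted p = 0.00293). The other 15 were not called, and the median was 0.03. Of all genes tested 0.888% were called there. In POU2F2 knockdown 0 of 16 were called and the median was 0.13. In SUDHL4 POU2AF1 knockdown 11 of 15 tested were higher, where 18% of all genes were, and 0 lower, with a median of 0.79 against 0.01 over all genes. P2RY10 (3.50 ± 0.54), CD72 (2.56 ± 0.11), CIITA (1.77 ± 0.11), MS4A1 (1.62 ± 0.17) and FCGR2B (1.43 ± 0.11) rose most. P2RY10 was scarce, at 0.0923 TPM in the SUDHL4 control and 1.00 TPM in the POU2AF1 knockdown. In the fit of all libraries P2RY10 and CD72 were called as higher, and IGHM was called as lower. In SUDHL4 POU2F2 knockdown 8 of 15 were higher, where 4.8% of all genes were, with a median of 0.33, and the fit of all libraries called 0.

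A list of 14 genes of mitochondrial respiration with GABP sites had calls in SUDHL4 POU2AF1 knockdown, 4 of 14 where 36.8% of all genes were called, and the fit of all libraries called 0 of them. Of the 14, 0 were called in either OCI-Ly7 knockdown (medians -0.03 and -0.04). In the SUDHL4 fit COX4I1 rose by 0.34 ± 0.11, and TFB1M (-0.69 ± 0.14), ATP5F1B (-0.59 ± 0.15) and TFAM (-0.38 ± 0.11) fell, with a median of -0.18. In SUDHL4 POU2F2 knockdown 0 of 14 were called (median -0.10). Of 15 immediate early genes that SRF and ternary complex factors such as ELK3 control, 13 were tested. This list, too, was chosen with earlier results known, and its counts cannot test for an excess. None of the 13 was called in OCI-Ly7, with medians of -0.16 in POU2AF1 and 0.57 in POU2F2 knockdown. EGR1 (2.81 ± 1.24) and FOS (2.50 ± 1.11) had the largest values in the latter, with large errors. Both were scarce in the OCI-Ly7 control. Mean EGR1 was 0.197 TPM there and 0.939 TPM in POU2F2 knockdown, and mean FOS was 0.830 and 4.79 TPM. In SUDHL4 POU2AF1 knockdown 8 of 13 were higher, where 18% of all genes were, among them EGR1 (3.96 ± 0.46), EGR3 (2.63 ± 0.46) and EGR2 (2.36 ± 0.54), and ATF3 (-1.80 ± 0.69) was lower. EGR3, EGR2 and ATF3 were scarce, at 0.281, 0.320 and 0.650 TPM in the control and 1.11, 0.794 and 0.126 TPM in the knockdown. The median of the 13 was 1.12. In SUDHL4 POU2F2 knockdown ZFP36, BTG2, IER2 and JUNB, 4 of the 13, were higher, where 4.8% of all genes were, by 0.43 to 0.62, with a median of 0.33. The fit of all libraries called none of the 13 in either.

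The genes whose pattern was most like that of ETV6 were sought over the 18 OCI-Ly7 libraries among the 16000 genes tested, by the mean absolute difference of log2 CPM after each gene was centred on its own mean. ELOVL6 was closest at 0.158, then SIPA1L2 at 0.184 and TRBC1 at 0.203, where ETV6's own mean deviation was 0.483.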

How the data were processed

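RNA was extracted with Trizol, and stranded mRNA libraries were sequenced as read pairs, per the labels' protocols. Per the submitters' processing notes, fastp and Salmon 1.5.1 were used with GRCh38.p13. Which annotation release they used is not given in the sources used here. The deposited files each list 227912 transcripts with an expected count (estimated reads) and a TPM value made by the authors. Transcripts were assigned to genes of GENCODE 29, which matched 205804 of them and 98.3% to 98.8% of reads, and both values were summed per gene. Of 26 files, repeat files that differed by no more than sampling noise (a noise ratio below 1.5) were merged into 22 libraries: OCI-Ly7 control 1 and 2, SUDHL4 control 1 and 2, and SUDHL4 POU2AF1 knockdown 1 and 2. The file of OCI-Ly7 control replicate 3 equalled the sum of control 1 and 2 within 2 reads for 92.9% of 26871 genes and was not added again.

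Counts were rounded to whole numbers and tested with edgeR 4.0.16 in R 4.3.3 (quasi-likelihood test, TMM scaling, filterByExpr with a minimum count of 10). P-values were adjusted by Benjamini-Hochberg over all genes tested and called below 0.05. OCI-Ly7 was fitted with batch as a term (14 residual degrees of freedom). SUDHL4 was fitted alone (1 residual degree of freedom), and all 22 libraries together for comparisons between lines. DESeq2 1.42.0, limma 3.58.1 on log2(TPM + 1), and other filters, scalings, blocks and libraries were tried as alternatives. The procedure was tested on simulated data that had no batch or series effect and the same relative spread for every gene of a line. That test therefore cannot speak to batch, series or unequal spread between genes. Series marks come from the sample descriptions. The members, gene lists and tests were chosen with earlier results of these data known. All 9 members are named, and of each list the genes called or, where none was, up to 3 with the largest absolute change. Some genes of the list of partners and cofactors are not reported here by name. SE is the standard error of a fitted log2 change. RefSeq promoter windows (GRCh38.p14) were used as given, and protein sequences were not used here.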

Additional observations from a re-analysis of the deposited data

Results flagged for a closer look

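Of 27 groups of 4 to 10 libraries (9 factors in the 3 OCI-Ly7 groups), 3 held a library far from the others by Dixon's criterion, which chance meets in about 1 group in 20. SPI1 read 99.0 TPM in OCI-Ly7 control replicate 1, the only OCI-Ly7 control of batch 1, where the next control read 71.9 TPM. ETS1 read 247 TPM in OCI-Ly7 POU2F2 knockdown replicate 1, the lowest of the 8 and the only library of series 1. ELF1 read 101 TPM in OCI-Ly7 POU2AF1 knockdown replicate 1, the library with 25.8% mitochondrial reads. In CPM that library read 280, inside the 261 to 323 of its group.

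The POU2AF1 response differed between the lines for 4 genes of the lists around the ETS factors, by the test of the difference in the edgeR fit of all libraries. They were 2 of 18 partners and cofactors and 2 of 16 B cell genes, where 0.798% of all genes were called. In the other lists 0 of 10, 0 of 14 and 0 of 13 genes tested were called. The response in OCI-Ly7 minus that in SUDHL4 was -1.64 for IRF8 (adjusted p = 0.0139), -1.71 for PAX5 (adjusted p = 0.0195), -3.95 for P2RY10 (adjusted p = 0.00183) and -2.42 for CD72 (adjusted p = 0.00553). SUDHL4 gives 1 library to each side of its change, and P2RY10 read 0.0923 TPM in its control and 1.00 TPM in its POU2AF1 knockdown.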

How the results depend on the processing

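Of the values recomputed under the alternatives, 1773 stayed on their side of the threshold, 53 lost the call, 33 gained it and 1 called value changed sign, FLI1 in SUDHL4 POU2AF1 knockdown (-0.018 with limma on TPM). Uncalled values changed sign too, 51 of 287 in OCI-Ly7 POU2F2 against POU2AF1 knockdown and 6 of 263 in OCI-Ly7 POU2AF1 knockdown. In OCI-Ly7 POU2AF1 knockdown the members called went from 1 to 2 with DESeq2, with 26 unmerged files, with the series block, with that block and POU2F2 knockdown replicate 3 in batch 1, and with no batch term. They went to 3 with the series block and without POU2AF1 knockdown replicate 1, to 0 within batch 2, and to between 0 and 2 when a library was left out. In POU2F2 knockdown they went from 0 to 1 with the series block, also without POU2AF1 knockdown replicate 1. In POU2F2 against POU2AF1 knockdown they went from 0 to 1 with DESeq2, 26 files, the series block (also without control replicate 1), and replicate 3 in batch 1 with or without that block, and to 2 with no batch term or with the series block without POU2AF1 knockdown replicate 1. The cause was not tested. The fit with 26 files, here and below, counts repeat files of the same library as separate replicates. Its added calls therefore rest on no further libraries.

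In SUDHL4 the members called in POU2AF1 knockdown went from 5 to 3 with DESeq2, 2 with limma and 0 in the fit of all libraries, also without either POU2F2 knockdown replicate. In POU2F2 knockdown they went from 2 to 0 with DESeq2, limma and the fit of all libraries and to 6 with 26 files. Between the knockdowns they went from 5 to 2 with DESeq2 and limma, 9 with 26 files and 0 in the fit of all libraries. The transcript fits called 0, where gene sums gave 8 over the knockdowns against control.

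Counts over all genes moved more. For OCI-Ly7 POU2AF1 knockdown (142) they were 330 with DESeq2, 72 with limma, 572 with 26 files, 8 without control replicate 1, 85 without POU2AF1 knockdown replicate 5, 895 with the series block and 1695 with it and without POU2AF1 knockdown replicate 1, 1120 with it and 266 without it when POU2F2 knockdown replicate 3 was in batch 1, 259 with no batch term, 24 in batch 1 and 7 in batch 2. For POU2F2 knockdown (0) they were 5 with DESeq2, 13 with the series block and 135 with it and without POU2AF1 knockdown replicate 1. Between the knockdowns (26) they were 85, 8, 69 and 201 with DESeq2, limma, 26 files and the series block, 120 and 687 without and with the series block when POU2F2 knockdown replicate 3 was in batch 1, 665 and 63 with the series block and without POU2AF1 knockdown replicate 1 or control replicate 1, 322 with no batch term, 4 in batch 2, 3 without control replicate 1 and 9 to 15 without POU2AF1 knockdown replicates 2 or 5, control replicates 8 or 9 or POU2F2 knockdown replicates 4 or 6. For SUDHL4 they were 3397, 3499 and 314 with DESeq2, limma and the fit of all libraries in POU2AF1 knockdown (6247), 396, 367 and 18 in POU2F2 knockdown (1248, with 81.8% higher in DESeq2 against 65.2%) and 2225, 2019 and 37 between them (4451), and 26 files gave 3759 and 7158 in the last 2. For the control lines (4447) 26 files gave 8135. For the line difference of the POU2AF1 response (151) they were 567 with DESeq2, 1791 with 26 files, 89 without control replicate 1 and 264 and 227 without POU2F2 knockdown replicates 3 and 1. For that of POU2F2 (2) they were 29, 12 and 30 with DESeq2, limma and 26 files.

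Replicate numbers did not pair the samples: deviations of 10 same-numbered pairs correlated between -0.366 and 0.514, and 1 of 18 libraries correlated best with its own number. Batch and series did: library pairs from different groups had a median correlation of 0.491 within a batch or series and -0.206 across them. The highest correlation of all, 0.780, was counted as across. It was that of POU2F2 knockdown replicate 3, labelled batch 2, with control replicate 1 of batch 1. This knockdown library also correlated at 0.472 to 0.520 with POU2AF1 knockdown replicates 2 to 4 of batch 1, and at -0.0683 with replicate 1. The main OCI-Ly7 fit kept it in batch 2, and had batch but not series as a term. With a replicate block beside batch, OCI-Ly7 POU2AF1 knockdown had 742 genes and 2 members called, the second being SPIB (-1.14, adjusted p = 0.0288).

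SUDHL4 with 1 library for the control and 1 for the POU2AF1 knockdown, and batch 1 of OCI-Ly7 with 1 control, set the limits of these comparisons.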
